A study of Mus musculus with 10 samples.

Results

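The excitatory postsynaptic scaffold genes examined here were Shank1, Shank2, Shank3, Dlgap1, Dlgap3, Dlgap4, Homer1, Dlg2 and Dlg4. These 9 genes were looked up by symbol in the deposited m6A peak lists, which name 8516 genes in all, 2879 of them in the knockout list and 7717 in the wild-type list. They held 17 of the 3673 knockout peaks and 25 of the 15009 wild-type peaks. A peak is a stretch of transcript that an antibody against N6-methyladenosine (m6A) enriched over unselected input RNA.

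The RNA came from cortex and hippocampus of mouse pups at postnatal day 5 and was selected for poly(A) tails. The knockout (KO) group lacked Mettl14, deleted with Nestin-Cre, and gave 2 immunoprecipitated and 2 input libraries. The wild-type (WT) group gave 3 libraries of each kind. METTL14 forms, with METTL3, the core of the complex that writes most m6A on mRNA, and Nestin-Cre acts in the neuroepithelial lineage, so microglia and vessel cells in the tissue would keep the gene. The labels name a culture medium as well as a tissue, so RNA taken straight from tissue and RNA from cultured cells cannot be told apart. Age is given for the series, not for each sample, and the sources used here do not state how many animals stand behind a library.

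The scaffold proteins build the postsynaptic density, the protein mesh under glutamate receptors of dendritic spines. In the layer next to the membrane, DLG proteins (Dlg4 encodes PSD-95) hold receptors through PDZ domains. DLGAP proteins (also called SAPAP or GKAP) bind the guanylate kinase domain of DLG proteins on their outer side and SHANK proteins on their inner side. SHANK proteins in turn bind HOMER proteins, which contact metabotropic glutamate receptors, and link the mesh to actin. The activity-induced short form of Homer1 arises from an alternative transcript end within the gene.

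Each genotype is represented by a single consensus list, so the comparison of KO with WT has no replicate error and no test, and a change in m6A and a change in transcript level cannot be told apart, nor can fewer cells of a type and less RNA per cell. Library depth is unknown here. Mettl14 had no KO peak and 1 WT peak of 180 exonic bases (the sources used here do not name the deleted part). Of 16 marker genes of forebrain neurons, 15 had a WT peak and the exception was Snap25. Of 21 markers of astrocytes, oligodendrocytes, microglia and vessels, 17 had one. A marker peak does not measure expression. Coordinates are those of GRCm38 counted from 1, all 9 genes lie on the plus strand, and distances run along the chromosome unless exonic bases are named. Peak widths lay within 1 base of a multiple of 30 in 94.7% of KO and 89.3% of WT entries, so borders are resolved in steps of about 30 bases.

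A WT peak was called retained where a KO peak shared at least 1 exonic base with it. Retained peaks were found in 5 of the 8 scaffold genes with a WT peak: Shank1, Shank2, Shank3, Dlgap3 and Dlg4. Over all genes with a WT peak this share was 20.6%, and among genes with 2 to 4 WT peaks, the range that these 8 genes span, it was 28.0%. Dlgap1, Dlgap4 and Homer1 had WT peaks and no retained one, and Dlg2 had a KO peak and no WT peak. By peaks, 7 of 25 WT peaks were retained (28.0%, Wilson 95% interval 14.3 to 47.6, counting error only), against 12.9% of all WT peaks. These counts rest on partial overlaps. A stricter rule asked that a single KO peak share at least 50% of the WT peak. By this rule 1 of 8 genes (Shank1) was retained, against 11.3% of all genes. By peaks it was 1 of 25, against 6.52% of all WT peaks, so both were close to or below the shares over the lists. This rule depends on WT width. The longest KO peak of the scaffold genes had 360 bases, so their WT peaks of 778 bases or more could not pass. The median WT width was 480 bases in the scaffold genes, against 208 over the WT list. The first Shank1 WT peak was shared to 58.8%, but only by 2 KO peaks together. In the other direction 13 of 17 KO peaks lay over a WT peak (76.5%, interval 52.7 to 90.4), against 57.1% of all KO peaks. The scaffold genes carried 2771 exonic bases under KO peaks and 14005 under WT peaks, a WT to KO ratio of 5.05, against 6.02 over both whole lists.

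**Figure D1:**
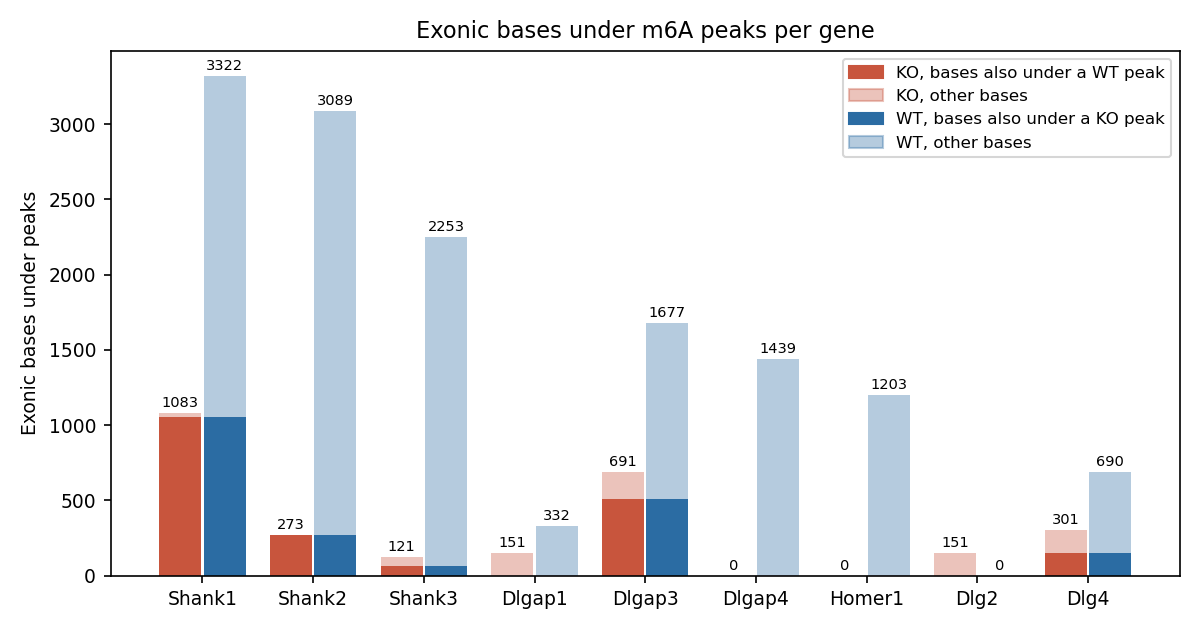
Exonic bases under peaks in each scaffold gene, with the KO bar left of the WT bar. The dark part of a bar is the length listed in both genotypes, which is longest in Shank1 (1053 bases) and 0 in Dlgap1, Dlgap4, Homer1 and Dlg2.

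Dlg4, which encodes PSD-95, the most used marker protein of the excitatory postsynapse, kept a peak at its 5′ end and none at its 3′ end. The gene spans 70017203 to 70045535 on chromosome 11. Its first KO peak covered 151 exonic bases on 2 blocks, from 70018853 to 70018949 and from 70023982 to 70024035. The WT peak over the same place had 4 blocks and 480 exonic bases from 70017511 to 70024065, so the KO peak covered 31.5% of it and lay wholly inside it. Both lists broke this peak at the same bases, 70018949 and 70023982, with 5032 bases between the blocks.

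Of the 13 promoter windows that the RefSeq table of GRCm38.p6 holds for 7 of the scaffold genes, 2 touched a peak, and both belong to Dlg4. They are shown because a peak block began exactly at the annotated transcript start of each, at 70018605 for the WT list alone and at 70023982 for KO and WT lists. Each of these blocks followed an earlier block of the same peak across a gap, so no peak began at these starts. Capitals mark the first 30 transcribed bases, which lie under the peak, and lower case marks the 250 bases before the start, plus strand, 5′ to 3′.
Dlg4 start under the WT block, chr11:70018355-70018634: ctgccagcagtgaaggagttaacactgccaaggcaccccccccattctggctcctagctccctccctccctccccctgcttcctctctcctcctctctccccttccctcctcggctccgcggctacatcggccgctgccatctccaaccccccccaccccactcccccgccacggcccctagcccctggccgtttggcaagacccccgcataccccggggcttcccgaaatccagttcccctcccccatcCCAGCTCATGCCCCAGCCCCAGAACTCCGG
Dlg4 start under KO and WT blocks, chr11:70023732-70024011: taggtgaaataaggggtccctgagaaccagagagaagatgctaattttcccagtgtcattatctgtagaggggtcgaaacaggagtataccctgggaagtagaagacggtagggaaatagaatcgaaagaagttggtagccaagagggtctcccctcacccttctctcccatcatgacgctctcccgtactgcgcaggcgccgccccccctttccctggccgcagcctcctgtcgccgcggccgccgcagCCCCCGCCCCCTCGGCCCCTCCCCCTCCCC

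The transcribed part of both windows was rich in C. Over its first 50 bases the share of C was 50% for the start under the WT block and 66% for the start under KO and WT blocks, against a median of 26% over all 32851 windows. The letters GGAC, the core of the most common m6A motif, were searched on both strands of each 300-base window. They were absent from the first of these windows and occurred once, on the minus strand, in the second, while 87.7% of all windows held them. Of each window 250 bases lie before the transcript start, so this share mostly describes the flank. Neither of the 50-base transcribed parts held GGAC on the RNA strand, nor did 81.2% of all windows. The windows cover only a part of each peak block, so the letters elsewhere under these peaks were not analysed here.

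The second Dlg4 KO peak lay elsewhere. It had 150 exonic bases on 2 blocks from 70031405 to 70031707, 7339 bases beyond the nearest WT block, and was stronger than 67.1% of the KO list by the listed p-value. The second Dlg4 WT peak, of 210 bases from 70044633 to 70044842, ended 693 bases before the gene end, was stronger than 88.3% of the WT list and had no KO peak over it. The 5′ WT peak that was retained was weaker, ahead of 58.0% of the WT list.

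Dlg2, which encodes the close relative PSD-93, showed the reverse listing. It had a single KO peak of 151 exonic bases on 2 blocks, 92375601 to 92375730 and 92386915 to 92386935 on chromosome 7, late in a gene of 1973059 bases, and no WT peak. By its p-value of 4e-12 this peak was stronger than 34.7% of the KO list. Genes with a KO peak and no WT peak made up 9.38% of all genes listed.

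Among the Dlgap genes, Dlgap3 kept strong KO peaks, Dlgap4 had none and Dlgap1 had one beside a WT peak. Dlgap3 had 3 KO peaks over 691 exonic bases, against 2 WT peaks over 1677. The first KO peak had 271 bases from 127195148 to 127195418 on chromosome 4, with a p-value of 1e-154, stronger than 95% of the KO list. The second, of 240 exonic bases, crossed an intron and had a p-value of 1.3e-100, stronger than 92.5%. Both lay inside the first WT peak, which ran from 127194700 to 127199825 in blocks of 1014 and 153 bases and is listed at a p-value of 0, too small to be held. The second KO peak left and entered the exons at the same bases as the WT peak, 127195713 and 127199673. These were the strongest KO peaks of the scaffold genes by rank within the KO list, together with the first Shank1 KO peak. KO peaks covered 43.8% of this WT peak. A KO peak of 180 exonic bases at 127214449 to 127214791 lay 14623 bases from any WT block of Dlgap3. The last WT peak, of 510 bases from 127236483 to 127236992, ended 30 bases before the gene end and had no KO peak over it.

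Dlgap4 had no KO peak and 4 WT peaks over 1439 exonic bases on chromosome 2, arranged as 2 pairs. The first pair, of 300 and 420 bases, lay between 156700617 and 156701544 in the middle of the gene. The second pair, of 599 and 120 bases, lay between 156762690 and 156763616, close to the gene end at 156764363. The peak of 599 bases is listed at a p-value of 0 and the peak of 420 bases was stronger than 86.8% of the WT list, so Dlgap4 held strong WT peaks with nothing listed over them in KO.

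Dlgap1 had 1 KO peak and 2 WT peaks on chromosome 17, with no shared base. Its KO peak was split over 3 blocks of 31, 30 and 90 bases and ended at 70761164, 178 bases before the first WT peak began at 70761343. With a gap of up to 100 bases allowed the pair stayed unshared. The WT peaks were short, 181 and 151 exonic bases, and stood ahead of 37.1% and 29.9% of the WT list. The second ended 2996 bases before the gene end.

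The Shank genes held most of the KO peaks of the set, 10 of 17, and all 10 lay over WT peaks. They carried 1477 exonic bases under KO peaks and 8664 under WT peaks, of which 1387 were shared. The extent differed widely between paralogues. KO peaks covered 31.7% of the WT peak bases in Shank1, 8.84% in Shank2 and 2.71% in Shank3, against 9.75% over the whole WT list.

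Shank1 had 5 KO peaks over 1083 exonic bases and 4 WT peaks over 3322, all within the last part of the gene on chromosome 7. The first KO peak, 360 bases from 44351743 to 44352102, began at the same base as the first WT peak, which ran on to 44352610. Its p-value was 1e-129, stronger than 94.1% of the KO list. A second KO peak of 150 bases lay inside the same WT peak, and the pair covered 58.8% of its 868 bases. The third KO peak, 181 bases from 44352909 to 44353089, began 30 bases before the second WT peak (44352939 to 44353208) and covered 55.9% of it. The last 2 KO peaks, of 211 and 181 bases, lay in the first block of the third WT peak, which had 1317 bases, and none touched its second block of 89 bases beyond an intron of 1975 bases. The fourth WT peak, 778 bases from 44356858 to 44357635, is listed at a p-value of 0 and had no KO peak within 2811 bases. The p-value of the second KO peak, 1.3e-11, is carried by 72 entries of the KO list, and Shank1 kept 3 retained peaks when KO peaks at such recurring values were left out.

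**Figure D2:**
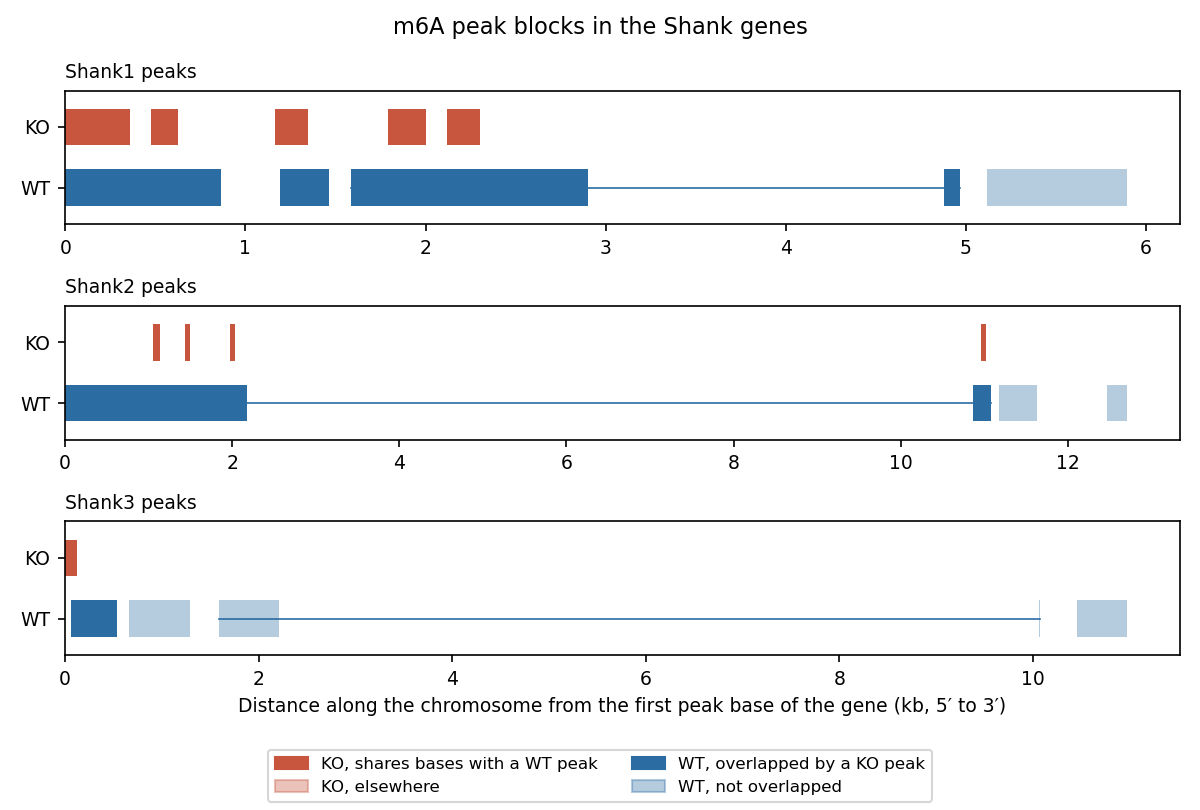
Peak blocks of Shank1, Shank2 and Shank3, KO above WT, drawn to scale in kb from the first peak base of each gene, with thin lines joining blocks of a peak. Dark blocks belong to peaks that share bases between genotypes. KO blocks sit in the 5′ part of the WT peak group in Shank1 and Shank3 and as 4 short pieces inside the first WT peak in Shank2.

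Shank2 had 4 KO peaks and 3 WT peaks, but only 273 exonic bases under KO peaks against 3089 under WT peaks. The KO peaks were short, with 91, 61, 60 and 61 bases, and all 4 lay inside the first WT peak. That WT peak was the widest of the set, 2398 exonic bases from 144409692 to 144420779 on chromosome 7, in blocks of 2177 and 221 bases. The first 3 KO peaks fell in its long block and the last in the block after the intron of 8690 bases, and they covered 11.4% of it. By p-value the 4 KO peaks were stronger than 26.6%, 5.34%, 18.0% and 38.6% of the KO list, so each belonged to its weaker part. The second WT peak, 450 bases from 144420869 to 144421318, is listed at a p-value of 0 and began 149 bases after the last KO peak ended, with none over it. The third WT peak, of 241 bases, was not retained either.

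Shank3 had 1 KO peak and 4 WT peaks on chromosome 15, with 121 exonic bases under the KO peak against 2253 under WT peaks. The KO peak, from 89547669 to 89547789, shared 61 bases with the first WT peak (89547729 to 89548209), the fewest shared bases of the 7 retained WT peaks and 12.7% of that peak. The other WT peaks, of 631, 631 and 510 exonic bases, had none. The retained WT peak was the weakest of the 4 Shank3 WT peaks by p-value, ahead of 25.2% of the WT list, while the others stood ahead of 62.2%, 72.7% and 45.4%.

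Homer1 had no KO peak and 4 WT peaks over 1203 exonic bases on chromosome 13. A WT peak of 600 bases began 630 bases after the gene start, at 93304387, and one of 151 bases followed at 93305106. A short WT peak of 61 bases at 93366550 to 93366610 was weak, ahead of 4.99% of the WT list. The last WT peak, of 391 exonic bases on 3 blocks from 93391763 to 93402311, ended 2818 bases before the gene end. The second and the last stood ahead of 69.9% and 65.4% of the WT list. Homer1 was thus without any listed KO peak at both ends of the gene. Dlgap4 and Homer1 together accounted for 8 of the 18 WT peaks that were not retained.

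Among the WT peaks of each gene the retained ones came first from the 5′ side, a pattern examined after the positions had been seen. This is an order among peaks, not a place near the gene start. The first WT peak began 42827, 431615 and 54716 bases into Shank1, Shank2 and Shank3, which span 51179, 447967 and 67249 bases. It began 26395 bases into Dlgap3, of 68718 bases, and 308 bases into Dlg4, of 28333 bases. In all 5 genes with a retained peak, the WT peak nearest the gene start was retained and the one nearest the gene end was not. The former was also wider in Shank1, Shank2, Dlgap3 and Dlg4 (868, 2398, 1167 and 480 exonic bases against 778, 241, 510 and 210). In Shank3 it was narrower (481 against 510), and position was not separated from width. Among the 1180 listed genes with 2 or more WT peaks and at least 1 retained, the peak nearest the gene start was retained in 47.9% and the one nearest the gene end in 38.1%. Over all 8 scaffold genes the first WT peak was retained in 5 and the last in 0, against 14.8% and 11.7% of all genes with 2 or more WT peaks. No KO peak of the scaffold genes had its midpoint within 5000 bases of the gene end, against 48.4% of all KO peaks. Of the WT peaks 9 of 25, in 7 genes, lay there, against 56.3% of all WT peaks. These counts depend on the window: within 1000 bases lay 3 WT peaks, in 3 genes, against 15.9% of all WT peaks, and within 500 bases 1 WT peak, against 7.23%. The shares over all peaks were not matched for gene length, and the scaffold genes span 28333 to 1973059 bases. Midpoints of peaks on several blocks are genomic and include introns. Transcript parts such as coding sequence were not analysed here.

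**Figure D3:**
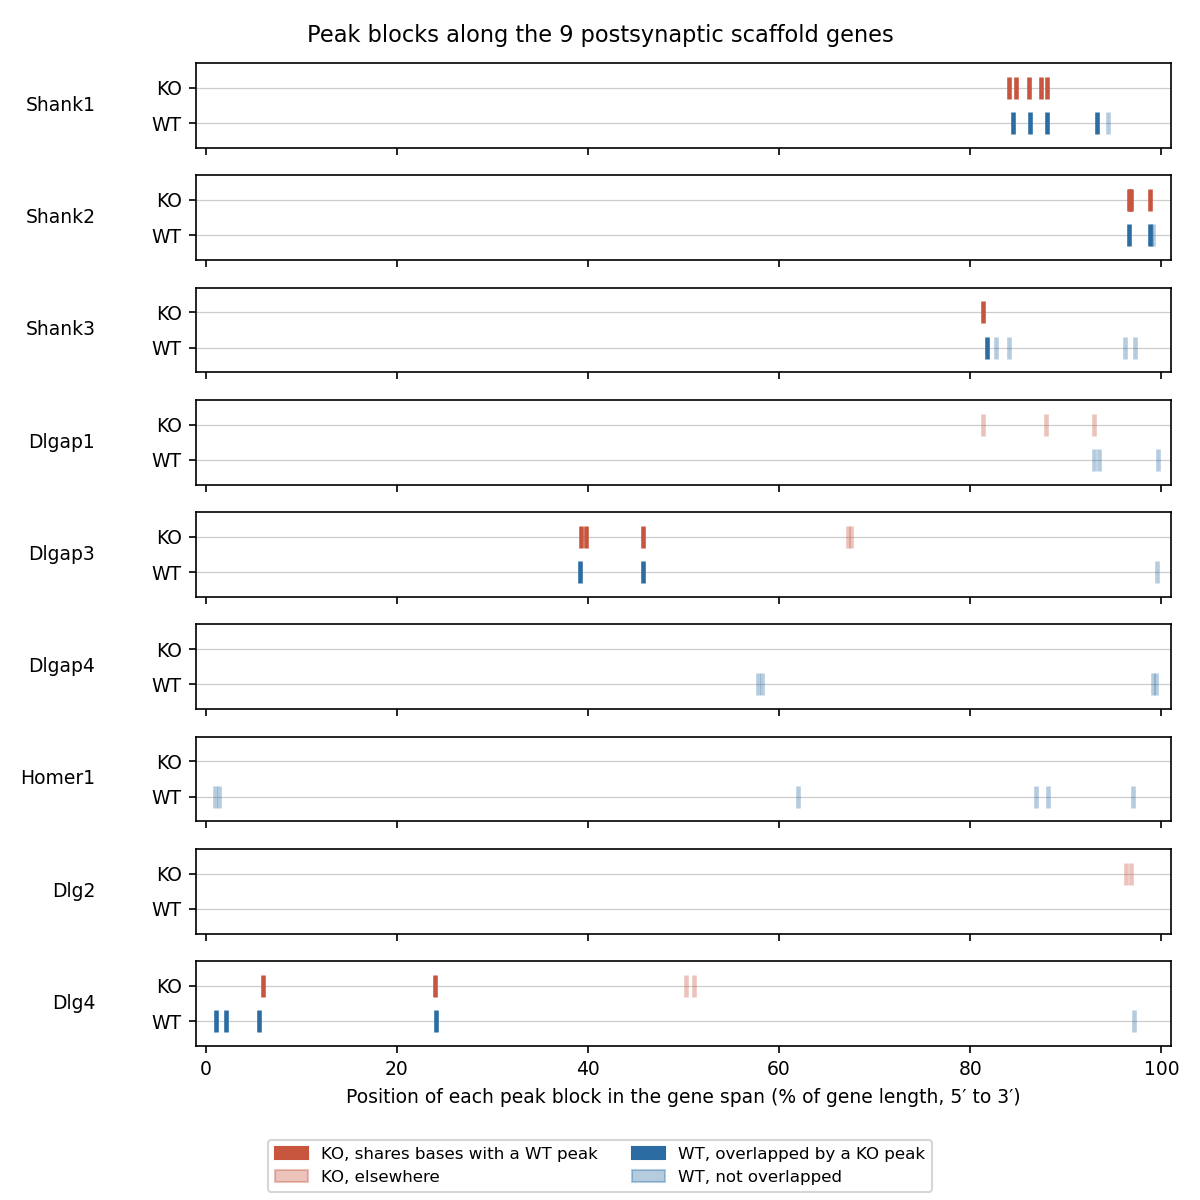
Position of every peak block in the scaffold genes as a percentage of the gene span, 5′ to 3′, KO above WT. Each tick is the centre of a block and its width is not to scale. In Dlgap3 and Dlg4 the last WT tick near 100% has no KO tick above it, and Dlgap4 and Homer1 have no KO tick at all.

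The WT peaks of the scaffold genes were wide and mostly strong, and room for overlap grows with width by construction. Their median exonic width was 480 bases, against 208 over the WT list, and 16 of 25 fell in the widest of 5 width classes of about equal size, 360 bases or more. In that class 6 of 16 were retained (37.5%), against 30.7% of all WT peaks of the class. Among the strongest of 5 classes by p-value 4 of 9 were retained (44.4%), against 31.0%. Within these top classes the excess was smaller than over all peaks, and it was not tested. The other classes held few scaffold peaks and went both ways. Strength classes 2 to 5, from strong to weak, retained 0 of 5, 1 of 6, 2 of 4 and 0 of 1. The shares over all WT peaks there were 14.0%, 9.49%, 6.43% and 3.53%. Width classes 4 to 1, from wide to narrow, retained 1 of 3, 0 of 2, 0 of 3 and 0 of 1. The shares over all WT peaks there were 15.8%, 9.23%, 5.13% and 2.67%. Retained peaks had a median width of 868 bases (270 to 2398) and the others of 406 bases (61 to 778), and these ranges overlap. The corresponding medians over the whole WT list were 359 and 181 bases. Of 4 WT peaks listed at a p-value of 0, Dlgap3 retained its own, while those of Shank1, Shank2 and Dlgap4 were not retained. The share retained among all 764 WT peaks listed at 0 was not computed.

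KO peaks of the scaffold genes had the same median width as the KO list as a whole, 151 bases, with a range of 60 to 360. Of the 13 KO peaks over a WT peak, 11 lay wholly inside it. The exceptions were the third Shank1 KO peak (83.4% inside) and the Shank3 KO peak (50.4%). The share lying wholly inside was not computed over all KO peaks. KO peaks were also narrower over the whole lists, with a median of 151 against 208 bases. Peaks on several blocks were retained in 4 of 7 cases and those on 1 block in 3 of 18, against 28.9% and 7.97% over the whole WT list.

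**Figure D4:**
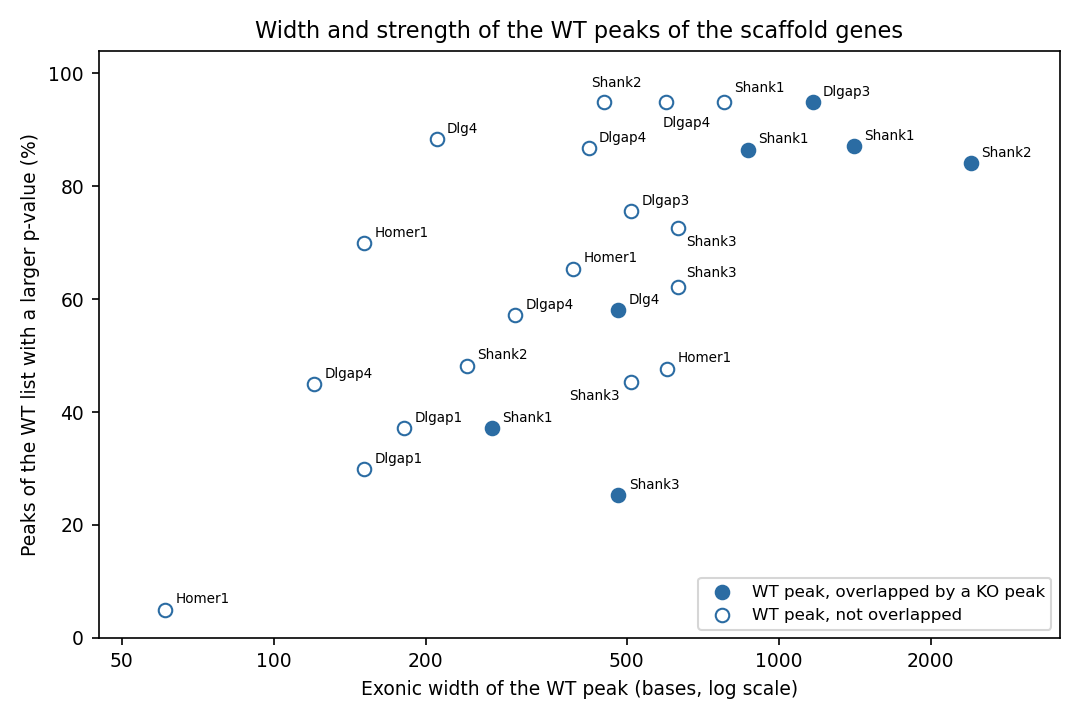
Exonic width (log scale) and strength of the 25 WT peaks of the scaffold genes, the latter as the percentage of WT peaks with a larger p-value. Filled points are retained. The 3 widest peaks are retained, and a group of strong peaks of 450 to 778 bases at the top is not.

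The remaining genes of the same families followed mixed courses. Homer2, a second Homer protein, had 1 KO peak of 181 exonic bases over its single WT peak of 361, and both ended at 81614439 on chromosome 7. Dlg5, a larger scaffold of cell junctions, had 1 KO peak of 61 bases over 1 of its 5 WT peaks. Dlgap2, Homer3 and Dlg3 (which encodes SAP102, abundant in the young brain) had no KO peak and 3 WT peaks each, and Dlg1 had none in either list. A retained peak was found in 2 of the 5 that carried WT peaks (40%), against 20.6% of all genes. By peaks, 2 of 15 WT peaks were retained (13.3%), against 12.9% of all WT peaks.

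Other scaffold and adaptor genes of the excitatory postsynaptic density had a KO peak in 13 and a WT peak in 31 of 34 genes, and 11 of these 31 had a retained peak (35.5%), against 20.6% of all genes. Ppp1r9b, which encodes spinophilin, a protein phosphatase anchor on actin, had 3 KO peaks and retained 2 of 3 WT peaks. The membrane scaffold gene Magi2 and the dynein light chain gene Dynll2, whose product binds DLGAP proteins, each retained 2 of 4. Akap5, the kinase anchor bound to PSD-95, Frmpd4 and Begain had no KO peak and 4 WT peaks each.

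Enzymes and GTPase regulators of the same structure had a KO peak in 18 and a WT peak in 33 of 34 genes, with a retained peak in 12 of 33 (36.4%), against 20.6% of all genes. The Arf regulator gene Agap2 had 6 KO peaks and retained 4 of 5 WT peaks, and the kinase gene Tnik had 3 KO peaks and retained 2 of 2. Sipa1l3, the exchange factor gene Trio and the Rac regulator gene Bcr had no KO peak and 8, 6 and 5 WT peaks.

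**Figure D5:**
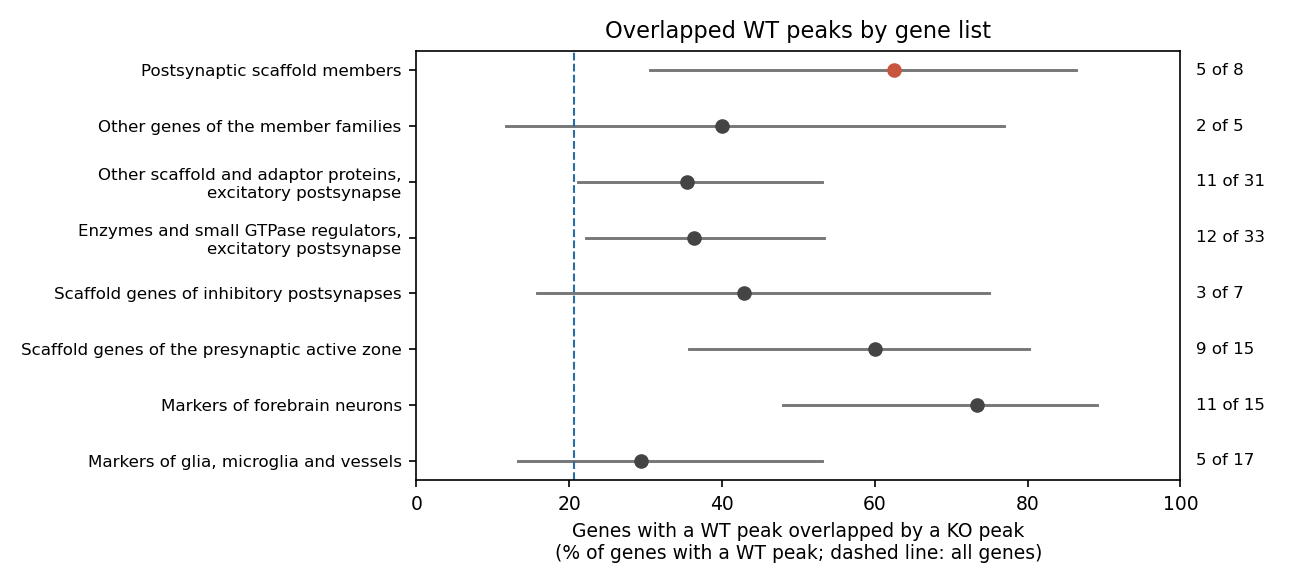
Share of genes with a WT peak that have a retained one, for the scaffold genes and for 7 further gene lists, with Wilson 95% intervals that cover counting error over genes only. The dashed line is the share over all genes, 20.6%. The scaffold genes stand at 5 of 8 and their interval overlaps those of all 7 lists.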

How the data were processed

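The authors deposited a consensus m6A peak list for each genotype as BED entries with a gene symbol, exonic blocks and a score. The deposited score was read as a p-value or q-value, since all scores lie near 0, though neither is named. Per the submitters' processing notes, STAR and GRCm38 were used. The sources used here name no peak caller, no thresholds and no rule for combining libraries. Samples were grouped by title.

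Python 3.11.15, numpy 2.4.6, pandas 2.3.3 and scipy 1.17.1 were used. Entries of a list that shared exonic bases on a strand were merged, and overlap of KO with WT peaks was computed on exonic blocks, same strand, after the code was tested on simulated lists. P-values ranked peaks within a list only. Gene spans and promoter windows came from RefSeq (GRCm38.p6). No test was run, since no value per library exists. All scaffold genes were named. In each further list, up to 3 genes with most retained peaks and up to 3 with most WT peaks and none retained were named, and of the same families each gene with a peak. A few genes taken by this rule are not reported here. Snap25, Dlg1, C1qa, Csf1r, Cldn5, Pecam1 and Pdgfrb were named after their values were seen. The scaffold genes and gene lists were chosen with earlier results of these data known.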

Additional observations from a re-analysis of the deposited data

How the results depend on the processing

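No paired analysis was possible because each genotype has a single list without values for its libraries, so no replicate could be left out either. Where a single KO peak had to share at least 50% of the WT peak, 1 scaffold gene (Shank1), 1 of 25 WT peaks and 1 of 17 KO peaks still qualified. The shares over the whole lists were 6.52% of WT peaks and 11.3% of genes. With KO peaks of at most 360 bases, scaffold WT peaks of 778 bases or more could not pass this rule. Where 50% of both peaks had to be shared, the counts were again 1, 1 and 1, with 6.26% of WT peaks and 10.9% of genes over the lists. With the WT list limited to as many peaks as the KO list holds, 3 of 5 scaffold genes qualified, against 34.4% of genes. By peaks 4 of 10 did, against 28.6% of WT peaks. With the stronger 50% of each list, 3 of 7 scaffold genes did, against 19.3% of genes, and 4 of 16 WT peaks, against 14.1%. Of the KO peaks 5 of 8 did, and with the shortened WT list 10 of 17 lay over a WT peak. Shares of all KO peaks under the changed settings are not given here, so these KO counts have no list share beside them. Scaffold genes with a WT peak near the gene end numbered 3 within 1000 bases, 1 within 500 and 7 within 5000. Shorter lists hold fewer peaks by construction. Whole spans, ignored strand, a tolerated gap of 100 bases, unmerged entries and leaving out recurring KO p-values (chosen after seeing the data) moved none of these counts by more than 1.5 times and kept both shares within their intervals. Depth is unknown, so a missing KO peak is not evidence of missing m6A.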

Other observations

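Scaffold genes of other synaptic sites were set beside the excitatory postsynaptic genes as values. Presynaptic active zone genes had a KO peak in 11 and a WT peak in 15 of 17 genes, and 9 of these 15 had a retained peak (60%), against 20.6% of all genes. Pclo (piccolo) had 4 KO peaks and retained 4 of 12 WT peaks, Bsn (bassoon) had 3 KO peaks and retained 3 of 14, and Erc1 retained 3 of 6. Erc2 and Rimbp2 each had 1 KO peak away from their 4 and 3 WT peaks, and Rims2 had no KO peak and 3 WT peaks.

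Inhibitory postsynaptic genes had a retained peak in 3 of 7 genes with a WT peak (42.9%), against 20.6% of all genes. Nlgn2, the adhesion protein of inhibitory synapses, had 2 KO peaks, neither of them over any of its 5 WT peaks. Lhfpl4 retained 1 of 5 WT peaks, Insyn1 1 of 2 and Shisa7 1 of 1. Slitrk3 and Insyn2a had no KO peak and 2 and 3 WT peaks. Gphn, which encodes the inhibitory scaffold protein gephyrin, had no WT peak and was named after its value was seen.

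Forebrain neuron markers retained peaks in 11 of 15 genes (73.3%, compared with 20.6% of all genes), among them Rbfox3 (3 of 3 WT peaks), Bcl11b (2 of 4) and Neurod2 (2 of 3), but not Prox1 or Zbtb20. Markers of glia, microglia and vessels did so in 5 of 17 (29.4%), against the same 20.6%. Among them were Cdh5 (2 of 3), Cx3cr1 (1 of 2) and Slc1a3 (1 of 2), but not Cspg4 (7 WT peaks), Olig1 or Pdgfra (3 each). The other microglia and vessel markers with WT peaks, C1qa, Csf1r, Cldn5, Pecam1 and Pdgfrb, had no KO peak and none retained.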
